A study of Drosophila melanogaster with 9 samples.

Results

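The sodium pump and the transporters that balance potassium and chloride across cell membranes were followed in the larval CNS of control animals and of animals with a transgene for an activated FGF receptor or for the insulin receptor in glia. The genes were chosen by name, as the single gene symbol of a probe set (the group of short probes that reads 1 transcript). Of 10 genes on the list, 8 were read by 9 probe sets, among 11981 genes and 18952 probe sets in all. They were the pump beta subunit genes *nrv1*, *nrv2* and *nrv3*, the potassium channel genes *Irk1*, *Irk2* and *Irk3*, the cotransporter gene *kcc* and the kinase gene *fray*. *Atpalpha*, which encodes the catalytic subunit of the pump, is not analysed here. *Ncc69* was named only together with *Hsp60B* on 1 probe set, and that signal was assigned to neither gene.

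RNA was taken from the whole CNS of wandering *Drosophila melanogaster* larvae of the third instar, 10 to 15 animals a sample, raised at 25 °C. The 3 groups of 3 samples were *repoGal4/+* (control), *repoGal4* with *UAS-Htl[ACT]* (an activated form of the FGF receptor Heartless, here *HtlACT*) and *repoGal4* with *UAS-InR* (the insulin receptor). *InR* tissue stands throughout for the samples labelled so. All 3 groups carry the driver *repoGal4*, which is active in glia, and the study used both transgenes to raise the number of glia. Each sample was read on 1 Affymetrix Drosophila Genome 2.0 array. Nothing says whether the samples of a group came from separate cultures, so p-values measure the spread between these samples, which may be partly technical.

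The transgenes were looked for first, through the probe sets of their own genes. *htl* read 342.2, 271.2 and 278.8 in control and 2345, 1899 and 1677 in *HtlACT* tissue, 6.61-fold higher (adjusted p = 1.43e-05 from limma). *InR* read 1192, 965.5 and 852 in control and 976, 799.5 and 786.6 on the arrays labelled *InR*. These groups overlapped, at a log2 fold change of −0.23 (95% interval −0.66 to 0.21, adjusted p = 0.384 from limma), so no rise of *InR* RNA was seen. Whether this probe set reads the transgene is not known here, and the label of the *InR* group was therefore not checked by its own gene.

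The sodium pump moves sodium out of a cell and potassium in, and it is built of a catalytic alpha subunit and a beta subunit, which brings the alpha subunit to the membrane. *nrv2* is known as a beta subunit gene of glia and *nrv3* as one of neurons. Inwardly rectifying (Irk) channels let potassium pass into a cell more readily than out. KCC proteins carry potassium and chloride out of the cell, and NKCC proteins carry them in with sodium. Fray is a kinase that acts on cotransporters of this family and is required in *Drosophila* for glia to ensheath axons. Glia are known to take up the potassium that active neurons release.

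Values are the deposited MAS5 signals, on a linear scale, and each array has a trimmed mean (2%) of 500.0. The median signal of an array was 30.7 to 40.6, and no signal was listed at 0. Where several probe sets read 1 gene the brightest was used, and the brighter 8552 of the 17104 that remained were tested with limma on log2 signals over all 9 arrays. Calls needed a change of 1.5-fold or more and, in limma, an adjusted p (Benjamini-Hochberg) no higher than 0.05. All 8 genes were among those tested. SE is the standard error of a log2 fold change. The median log2 fold change of everything tested was −0.15 for *HtlACT* and −0.09 for *InR* against control, so changes are relative to this scaling. Of 4 pan-glial markers besides *nrv2*, 3 were called higher in *HtlACT* and 1 in *InR* tissue. *repo*, the homeobox gene of glia, rose by 1.32 and 0.75 on the log2 scale (adjusted p = 1.23e-05 and 0.00031 from limma). *bnb* was at 2.28 and 0.31, *loco* at 1.48 and 0.54 and *Gs2* at −0.26 and −0.06 in *HtlACT* and *InR* tissue, the last of them called in neither. *elav*, which marks neurons, was at −0.81 and −0.43, and only the first was past 1.5-fold (adjusted p = 0.000482 and 0.0178). In bulk tissue, fewer cells of a type and less RNA per cell cannot be told apart.

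Markers of several cell types moved with the groups. The summed signal of 4 cortex glial markers was 5966 to 6835 in control, 28547 to 33242 in *HtlACT* and 6909.9 to 7859.8 in *InR* tissue. One of them is *htl*, the gene of the transgene, and without it the sums were 5624 to 6556, 26649 to 30897 and 6639 to 7521. For 5 surface glial markers the sums were 8266 to 9979, 28927 to 30366 and 32615 to 34785. The 12 neuronal markers read 33984 to 34992, 14967 to 21439 and 22854 to 27029, and in *HtlACT* tissue 10 of the 11 tested were called lower, against 1 of 11 in *InR* tissue. Sums of 6 neuroblast markers were 8000.4 to 8382, 4776 to 5248 and 5171 to 5859. Signals of 3 fat body markers summed to 6944 on control 2, 18738 on *InR* 2 and 9876 on *InR* 3, and to 585.3 to 1011 on the other arrays. All 4 tracheal markers were called higher in *InR* tissue by limma and 2 by SAM, where limma called 9.24% of everything tested higher. Sums of 5 hemocyte markers were 468.5 to 550.6 in control, 193.2 to 446.8 in *HtlACT* and 680.9 to 1208 in *InR* tissue, and those of 5 imaginal disc markers were 1534 to 2089, 741.1 to 1113 and 936.3 to 1354. Sums of 4 neuropil glial markers overlapped between groups, at 34399 to 35235, 31209.6 to 41805 and 32609.9 to 41421. Most of that sum is *Obp44a*, with means of 30387, 30186 and 31931, so it says little of the others. Against control, *Gat* was called higher in *HtlACT* tissue (1.12, adjusted p = 0.00398 from limma) and *e* lower in *InR* tissue (−0.87, adjusted p = 0.00486 from limma). Of the 4, 3 were called higher in *HtlACT* than in *InR* tissue, beside 5.43% of everything tested. The 2 muscle markers summed to no more than 54.2 on any array. The part of any of these in the results was not tested.

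In *HtlACT* tissue 5 of the 8 genes were called higher than in control tissue, 1 was called lower and 2 were not called. Of everything tested, 13.0% was called higher and 19.2% lower. The median log2 fold change of the 8 genes was 0.86, beside −0.15 for all genes tested. Scaling moved the background, since 40.4% of all calls in *HtlACT* tissue were higher, against 50.1% after quantile normalization, 52.7% after centring on the tested probe sets and 59.7% after centring on the median of all probe sets. The *HtlACT* arrays lay above all control arrays for 5 of the 8 genes (24.1% of everything tested) and below them for 2 (39.7%). The genes that rose were *nrv1*, *nrv2* and all 3 inward rectifier genes, and the gene that fell was *nrv3*. In *InR* tissue none of the 8 genes was called by limma, where 9.24% of everything tested was called higher and 6.57% lower. SAM, the test of the methods, called none there either, while 7 of the 8 had an unadjusted p under 0.05 in limma. The share of everything tested under that limit was not taken, so such counts, here and below, are not read as results about these genes. Of all calls in *InR* tissue 58.4% were higher. The share was 58.8% after quantile normalization, 67.8% after centring on the tested probe sets and 41.5% after median centring. The *InR* arrays lay above the control arrays for 2 genes (20.5% of everything tested) and below them for 4 (32.1%). Compared directly, *HtlACT* tissue was higher than *InR* tissue for 4 of the 8 genes, *nrv2* and the 3 inward rectifier genes, against 5.43% of everything tested. None was called lower, by limma or by SAM, with 6.45% of everything tested called lower by limma. All 8 had an unadjusted p under 0.05. The *HtlACT* arrays lay above the *InR* arrays for 6 genes (16.8% of everything tested) and below them for 2 (25.0%), *nrv3* and *fray*, whose difference turned to 0.04 after median centring. Of all calls in this comparison 45.7% were higher, 59.3% after quantile normalization, 56.1% after centring on the tested probe sets and 80.4% after median centring. Control 2, *InR* 2 and *InR* 3 were the 3 arrays of most fat body signal. Without control 2 and *InR* 2, 4 genes were higher in *HtlACT* than in control tissue (12.2% of everything tested) and 1 was lower (17.8%). Without all 3 arrays *InR* tissue has 1 array. Fewer of the 8 genes, and fewer of everything tested, were then called higher in *HtlACT* than in *InR* tissue.

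**Figure D1:**
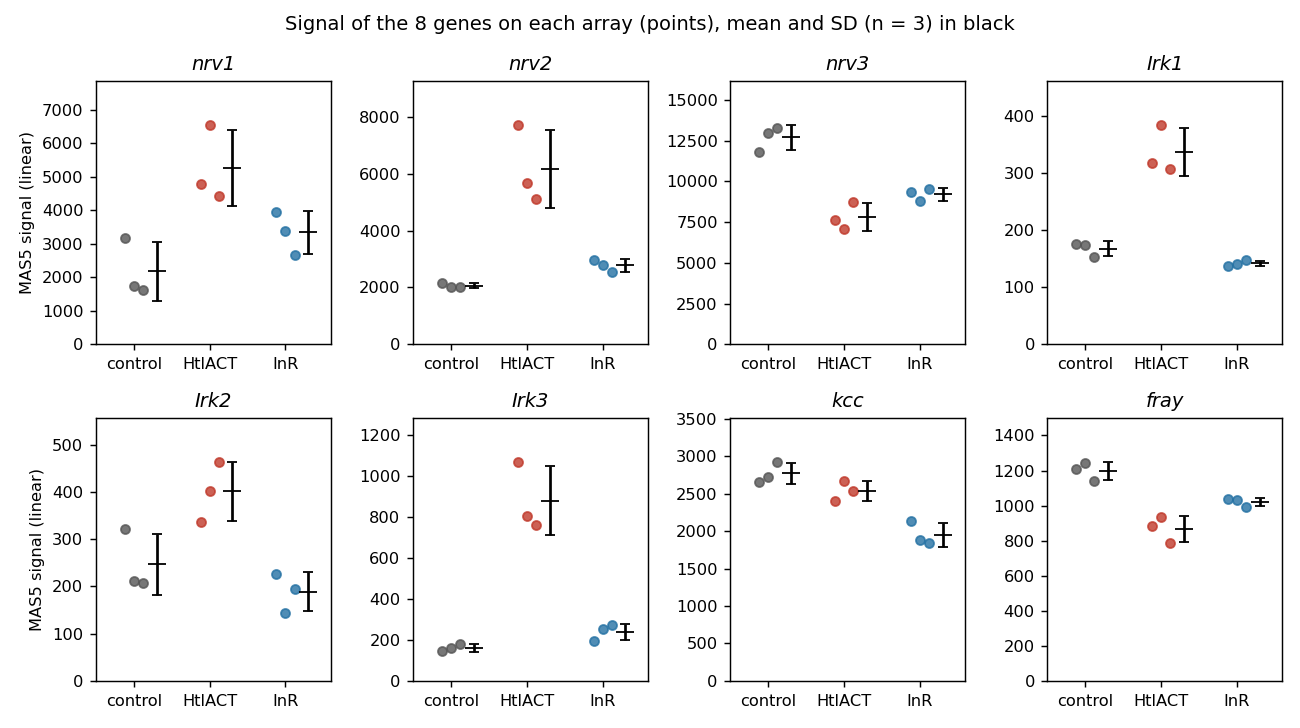
Linear MAS5 signal of each of the 8 genes (vertical axes, from 0) on every array, in control, HtlACT and InR tissue, with the mean and SD of 3 arrays in black. The 3 HtlACT arrays lie above all other arrays for nrv1, nrv2, Irk1, Irk2 and Irk3, and below the control arrays for nrv3 and fray.

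*nrv2*, the glial beta subunit gene, read 2159.7, 2009 and 2009.9 on the control arrays, 7733, 5696 and 5118 on the *HtlACT* arrays and 2985, 2809 and 2544 on the *InR* arrays. The 3 groups did not overlap, with control lowest and *HtlACT* highest. The mean rose from 2059 ± 86.8 to 6182 ± 1374 in *HtlACT* tissue (SD, n = 3 each), 2.96-fold. On the log2 scale it rose by 1.56 (SE 0.15 in limma, adjusted p = 9.22e-05). In *InR* tissue the mean was 2779 ± 222 (SD, n = 3), a log2 fold change of 0.43 (SE 0.15 in limma, adjusted p = 0.0507), with a 95% interval of 0.09 to 0.77. This is 1.35-fold, under the limit, and *nrv2* was called there in none of 25 alternatives. Its adjusted p in limma was 0.0174 with a replicate block on the control and *InR* arrays alone, and 0.166 after median centring. The direct difference of *HtlACT* from *InR* tissue was 1.13 (SE 0.15 in limma, adjusted p = 0.00147). It was 1.03 and not called without these 3 arrays (adjusted p = 0.0972, and 0.000335 to 0.0972 over all alternatives). That comparison has 1 *InR* array, which is assumed to vary like the other groups.

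*nrv3*, the neuronal beta subunit gene, read 11826, 12987 and 13291 in control, 7654, 7056 and 8734 in *HtlACT* and 9325, 8772 and 9549.9 in *InR* tissue. The control arrays lay above all others. The highest *HtlACT* array lay just below the lowest *InR* array, and the difference between these groups was −0.24 and not called (SE 0.09 in limma, adjusted p = 0.0971), or 0.04 after median centring. From 12701 ± 773 (SD, n = 3) in control the mean fell to 7815 ± 850 (SD, n = 3) in *HtlACT* tissue, 1.63-fold. The log2 fold change was −0.70 (SE 0.09 in limma, adjusted p = 0.000478). Relative to the median of everything tested it was −0.55, or 1.47-fold, and after centring each array on its median signal it was −0.53 and under 1.5-fold (adjusted p = 0.0239, and 9.84e-05 to 0.0239 over all alternatives). In *InR* tissue the mean was 9216 ± 400 (SD, n = 3), a log2 fold change of −0.46 (SE 0.09 in limma, adjusted p = 0.00744), past the p limit and under 1.5-fold. The sums of the other neuronal markers, given above, were lower in both tissues as well, and their part in this result was not tested.

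The contrast of both beta subunit genes was taken as log2 *nrv2* minus log2 *nrv3* on each array, which no scaling of a whole array can change. Its absolute value depends on the probes, and only its change between groups was read. The difference was −2.45, −2.69 and −2.73 in control, 0.01, −0.31 and −0.77 in *HtlACT* and −1.64, −1.64 and −1.91 in *InR* tissue. No group overlapped another, and *InR* arrays lay between the others. Its mean was −2.62 ± 0.15 in control, −0.36 ± 0.39 in *HtlACT* and −1.73 ± 0.15 in *InR* tissue (SD, n = 3 each). The ratio of *nrv2* to *nrv3* was thus 4.82-fold higher in *HtlACT* and 1.86-fold higher in *InR* than in control tissue, and 2.6-fold higher in *HtlACT* than in *InR* tissue. An exact permutation test over the 3 groups gave p = 0.00357, the smallest that 1680 arrangements can give. For each pair of groups the exact two-sided permutation p was 0.1, which is the smallest possible with 3 against 3. Both tests rearranged the arrays freely and so took no account of a pairing by replicate number.

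*nrv1*, the third beta subunit gene, neighbours *nrv2* on chromosome arm 2L, with no gene of the RefSeq annotation between them. It read 3182, 1737 and 1611 in control, 4800.0, 6551 and 4442 in *HtlACT* and 3959.6, 3384 and 2669.6 in *InR* tissue. Control 1 stood above the other control arrays and overlapped the *InR* group, while the *HtlACT* arrays lay above all others. In *HtlACT* tissue the log2 fold change was 1.32 (SE 0.28 in limma, adjusted p = 0.00443), 2.5-fold. In *InR* tissue it was 0.67 (SE 0.28 in limma, adjusted p = 0.0972), 1.59-fold and not called. Same-numbered control and *InR* arrays deviated together, and with the replicate number as a block on these 6 arrays *nrv1* was called (adjusted p = 0.0313). It was not called with the same block on all 9 arrays (adjusted p = 0.0624). Without control 1 it was called as well, at 0.98 (adjusted p = 0.0154, and 0.0154 to 0.367 over all alternatives). The direct difference was 0.66 (SE 0.28 in limma, adjusted p = 0.126), and it was called without control 1 (adjusted p = 0.0449) and after median centring (0.93, adjusted p = 0.0232), with 0.0232 to 0.606 over all alternatives.

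**Figure D2:**
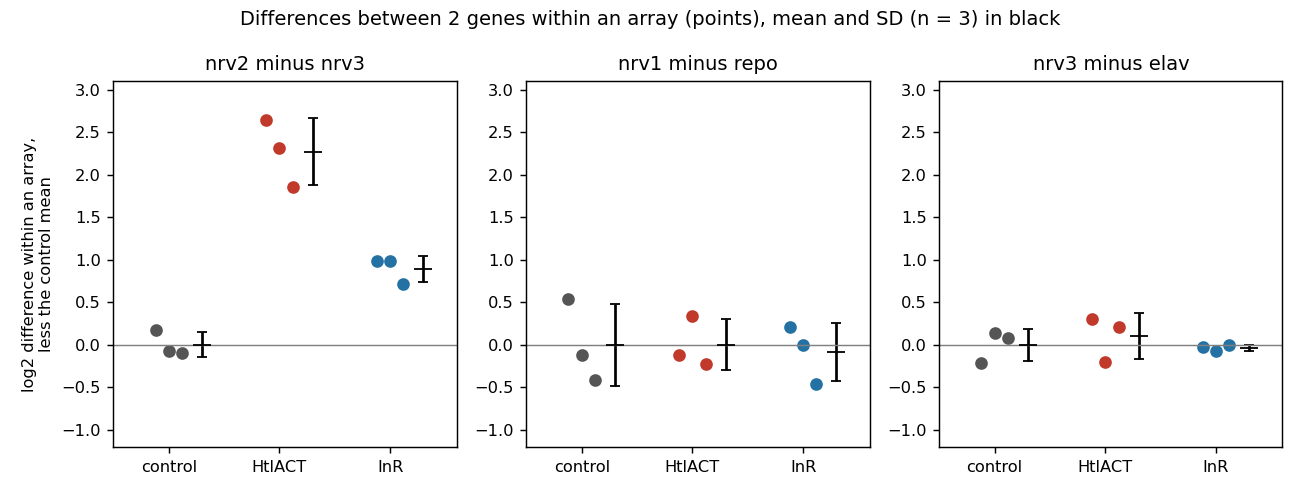
Differences of log2 signal between 2 genes on the same array, less the mean of the control arrays (vertical axis, log2 units), for nrv2 minus nrv3, nrv1 minus repo and nrv3 minus elav, with the mean and SD of 3 arrays in black. The nrv2 to nrv3 difference separates the 3 groups, while the groups overlap in the other 2 panels. Those 2 were chosen after the data were seen. In nrv2 minus repo, which is not plotted, the InR arrays lie below the control and HtlACT arrays.

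The beta subunit genes were also set against the marker genes *repo* and *elav* on the same arrays, a step added after the data were seen. Relative to *repo*, *nrv1* differed from control by 0.00 in *HtlACT* and by −0.08 in *InR* tissue on the log2 scale, and the groups overlapped. The SD of that difference was 0.48 in control, 0.30 in *HtlACT* and 0.34 in *InR* tissue (n = 3 each), so a change of this size could not be told from 0. *nrv2* relative to *repo* was 0.24 higher in *HtlACT* tissue, with groups that overlapped. It was lower by 0.32 in *InR* tissue (mean difference −0.32), where the groups were apart. That direction depends on the marker, since *nrv2*, at 0.43 in *InR* tissue, was below *repo* and *loco* but above *bnb* and *Gs2*. Relative to *elav*, *nrv3* differed from control by 0.10 in *HtlACT* and −0.03 in *InR* tissue, with groups that overlapped and SDs of 0.19, 0.27 and 0.04 in control, *HtlACT* and *InR* tissue (n = 3 each). Over the 11 tested neuronal markers the median log2 fold change was −0.88 in *HtlACT* and −0.46 in *InR* tissue, beside −0.70 and −0.46 for *nrv3*.

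All 3 inward rectifier genes rose in *HtlACT* tissue. *Irk3* had the largest change of the 8 genes, with signals of 144.5, 158.5 and 179.4 in control, 1071, 807.3 and 763.3 in *HtlACT* and 195.2, 254.1 and 271.2 in *InR* tissue. Every *HtlACT* array lay far above the rest, and the *InR* arrays lay just above the control arrays. The mean rose from 160.8 ± 17.6 to 880.6 ± 167 (SD, n = 3 each), 5.44-fold, or 2.44 on the log2 scale (SE 0.17 in limma, adjusted p = 2.73e-05). In *InR* tissue the log2 fold change was 0.57 (SE 0.17 in limma, adjusted p = 0.0317), 1.48-fold and so just under the limit. It passed 1.5-fold after quantile normalization (0.60, adjusted p = 0.0275) and after centring on the tested probe sets (0.62, adjusted p = 0.0275). It passed also without control 3 (0.65, adjusted p = 0.0441) or without *InR* 1 (0.71, adjusted p = 0.0193), where the range over all alternatives was 0.0137 to 0.545. Compared directly, *HtlACT* exceeded *InR* tissue by 1.87 (SE 0.17 in limma, adjusted p = 0.000241). Relative to *repo*, *Irk3* was 1.12 higher in *HtlACT* than in control tissue, with groups apart, and at −0.18 in *InR* tissue, with groups that overlapped. Its change in *HtlACT* tissue was above those of all 4 pan-glial markers, while in *InR* tissue it was below that of *repo* alone.

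*Irk1* read 176.1, 173.2 and 152.6 in control, 316.8, 383.9 and 306.3 in *HtlACT* and 137.7, 140.2 and 146.9 in *InR* tissue. The *HtlACT* arrays were highest and the *InR* arrays lowest, without overlap. Its log2 fold change was 1.0 in *HtlACT* tissue (SE 0.10 in limma, adjusted p = 0.000143) and −0.24 in *InR* tissue (SE 0.10 in limma, adjusted p = 0.105). The direct difference was 1.24 (SE 0.10 in limma, adjusted p = 0.000158). Relative to *repo* it was −0.32 in *HtlACT* tissue, with groups that overlapped, and −0.99 in *InR* tissue, with groups apart.

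*Irk2* read 320.8, 211.9 and 207.1 in control, 337.4, 402.1 and 463.7 in *HtlACT* and 226.7, 144.7 and 194.7 in *InR* tissue. The *HtlACT* arrays lay above all others by a small margin over control 1, and control and *InR* arrays overlapped. Its log2 fold change was 0.72 in *HtlACT* tissue (SE 0.22 in limma, adjusted p = 0.025) and −0.38 in *InR* tissue (SE 0.22 in limma, adjusted p = 0.219, 95% interval −0.90 to 0.14). The direct difference was 1.10 (SE 0.22 in limma, adjusted p = 0.0103). The call against control is the least secure of the 5. It was lost without control 2 (adjusted p = 0.0788), control 3 (0.0809), *HtlACT* 2 (0.0587) or *HtlACT* 3 (0.0794), without a filter on mean signal (0.0842), with a replicate block on 6 arrays (0.0686), without the arrays of most fat body signal (0.0628 and 0.0846), and in SAM, and adjusted p ranged from 0.00845 to 0.0846 over all alternatives. The direct difference was not called without the filter (adjusted p = 0.0517) or without the 3 arrays of most fat body signal (0.81, adjusted p = 0.193), and ranged from 0.00246 to 0.193. Relative to *repo*, *Irk2* was at −0.60 in *HtlACT* and −1.13 in *InR* tissue, with both groups below control. In *HtlACT* tissue *Irk1* and *Irk2* changed by less than *repo*, *bnb* and *loco* and by more than *Gs2*, and in *InR* tissue both were below all 4 markers.

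**Figure D3:**
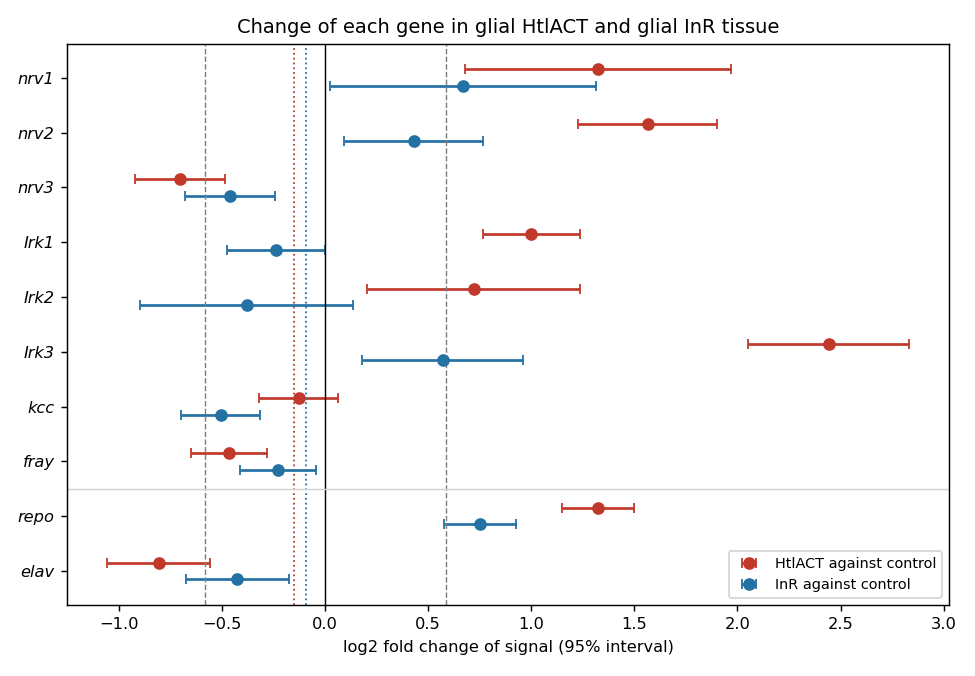
Log2 fold change of signal (horizontal axis) against control for the 8 genes and for the markers repo and elav, in HtlACT (red) and InR (blue) tissue. Bars are 95% intervals from limma, dashed lines mark 1.5-fold, and dotted lines mark the median of all tested probe sets in each comparison. For Irk1 the values are 1.0 in HtlACT and −0.24 in InR tissue.

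The potassium chloride cotransporter gene *kcc* read 2661, 2729 and 2929 in control, 2407, 2669 and 2537 in *HtlACT* and 2139.5, 1879 and 1847 in *InR* tissue. Control and *HtlACT* arrays overlapped, and the *InR* arrays lay below both. In *HtlACT* tissue the log2 fold change was −0.13 (SE 0.08 in limma, adjusted p = 0.222, 95% interval −0.32 to 0.06), or 0.05 after median centring. In *InR* tissue it was −0.51 (SE 0.08 in limma, adjusted p = 0.00309), 1.42-fold and under the limit, and it was called at −0.61 after median centring (adjusted p = 0.0168, and 0.000986 to 0.188 over all alternatives). The direct difference was 0.38 (SE 0.08 in limma, adjusted p = 0.0142), under 1.5-fold, and was called at 0.66 after median centring (adjusted p = 0.0136, and 0.00619 to 0.325 over all alternatives). Relative to *repo*, *kcc* was at −1.45 in *HtlACT* and −1.26 in *InR* tissue, with both groups below control. Relative to *elav* it was at 0.68 in *HtlACT* tissue, with groups apart, and −0.08 in *InR* tissue, with groups that overlapped.

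The kinase gene *fray* read 1211, 1243 and 1139.8 in control, 882.6, 933.6 and 788.4 in *HtlACT* and 1037, 1033 and 991.5 in *InR* tissue. Control arrays lay above all others. The log2 fold change was −0.47 in *HtlACT* tissue (SE 0.08 in limma, adjusted p = 0.00154), which is under 1.5-fold. It was −0.23 in *InR* tissue (SE 0.08 in limma, adjusted p = 0.0536). *HtlACT* tissue differed from *InR* tissue by −0.24 (SE 0.08 in limma, adjusted p = 0.0649), or by 0.04 after median centring. Relative to *repo*, *fray* was at −1.79 in *HtlACT* and −0.98 in *InR* tissue, with both groups below control. Relative to *elav* it was at 0.34 and 0.20, with groups that overlapped.

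**Figure D4:**
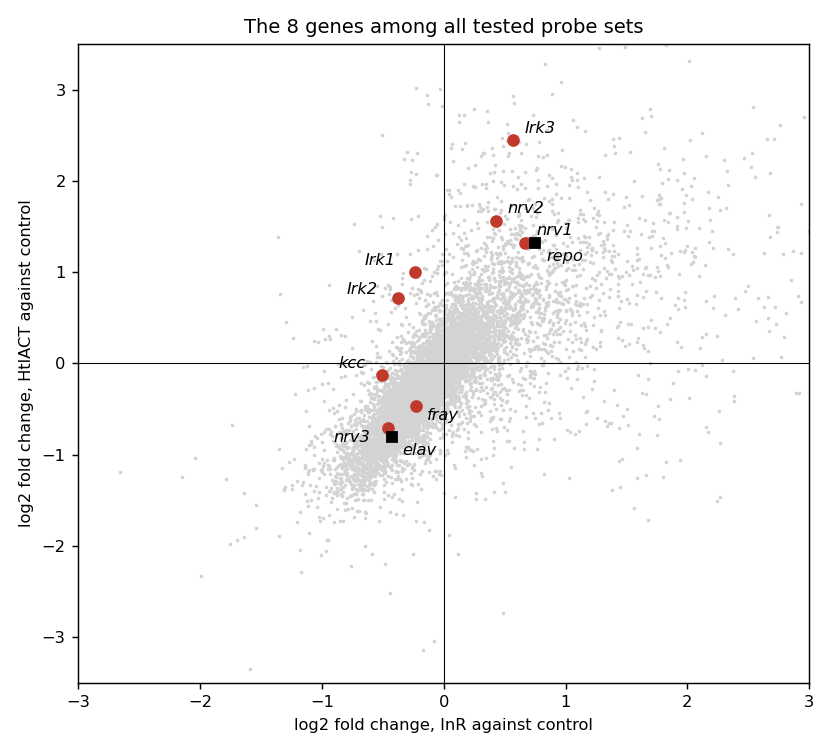
Log2 fold change against control in InR (horizontal axis) and HtlACT tissue (vertical axis) of the 8 genes (red), repo and elav (black squares) and all 8552 tested probe sets (grey), of which 36 lie outside the axes. Both comparisons share the control arrays, so only the position of each named gene on either axis is read. Irk1 and Irk2 lie above 0 in HtlACT and below 0 in InR tissue.

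Other genes of ion balance were taken from lists of related genes. Their counts stand beside 13.0% of everything tested called higher in *HtlACT* tissue and 9.24% in *InR* tissue. Of 5 genes of the cation chloride cotransporters and their kinases, none was called in *HtlACT* tissue by limma, where 3 had an unadjusted p under 0.05, and none by SAM. In *InR* tissue 2 rose by limma (1 by SAM), *NKCC*, a sodium potassium chloride cotransporter gene, from 1025 ± 60.6 to 1587 ± 48.8 (SD, n = 3 each), and *CG10413*, a gene of the same family. Their log2 fold changes were 0.63 and 0.62 (adjusted p = 0.000706 and 0.0253 from limma). In *HtlACT* tissue *NKCC* was at −0.24, and it was lower there than in *InR* tissue by 0.87 (−0.87, adjusted p = 0.000189 from limma). Over these 5 genes the median change was −0.07 in *HtlACT* and 0.47 in *InR* tissue on the log2 scale, beside −0.15 and −0.09 over everything tested.

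Of 6 chloride channel genes 2 rose in *HtlACT* tissue, beside 13.0% of everything tested. None rose in *InR* tissue by limma, where 2 had an unadjusted p under 0.05, and none there by SAM. *ClC-a*, a ClC family channel gene, read 526.8 ± 48.1 in control, 1605 ± 52.1 in *HtlACT* and 454.3 ± 50.1 in *InR* tissue (SD, n = 3 each). Against control these are 1.61 and −0.22 on the log2 scale (adjusted p = 1.79e-05 and 0.131 from limma). *ClC-c* rose by 1.31 in *HtlACT* tissue and was at 0.55 in *InR* tissue. Among 3 two-pore potassium leak channel genes tested, *Ork1* rose in *HtlACT* tissue from 49.19 ± 12.6 to 249.1 ± 87.1 (SD, n = 3 each), by 2.30 on the log2 scale (adjusted p = 0.000485 from limma), while *Task7* fell by 0.95. In *InR* tissue *Ork1* was at 0.33 and *Task7* at −0.41, neither called. *Ork1* control signals lie close to the array medians of 30.7 to 40.6.

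Of 8 tested exchanger genes 1 rose and 4 fell in *HtlACT* tissue, and 1 rose and 1 fell in *InR* tissue. Over everything tested 13.0% were called higher and 19.2% lower in *HtlACT* tissue, and 9.24% and 6.57% in *InR* tissue. Single calls among 8 genes are near this background, which does not hold for the 4 lower calls in *HtlACT* tissue. *zyd*, also 1 of the cortex glial markers, which encodes a potassium-dependent sodium calcium exchanger of cortex glia, rose by 2.43 in *HtlACT* and 0.62 in *InR* tissue. The anion exchanger gene *Ae2* fell by 1.38 and by 1.24, and the sodium calcium exchanger gene *Calx* and the sodium-driven anion exchanger gene *Ndae1* fell by 1.48 and by 1.03 in *HtlACT* tissue. *Calx* was dim, at 66.08 ± 6.95 in control and 23.99 ± 5.37 in *HtlACT* tissue (SD, n = 3 each), the latter below the array medians of 30.7 to 40.6.

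A further list held genes linked to potassium buffering by glia and water channel genes, of which 5 were tested. In *HtlACT* tissue 3 rose and 1 fell (13.0% and 19.2% of everything tested), and in *InR* tissue 3 rose (9.24%). The aquaporin gene *Prip* rose from 969.9 ± 59 to 3289 ± 325 in *HtlACT* and to 3804 ± 231 with *InR* (SD, n = 3 for every group). Its changes were 1.76 and 1.97 on the log2 scale (adjusted p = 1.03e-05 and 9.64e-06 from limma). *bib*, of the same family, rose by 0.86 and 1.08. The kinase gene *Sik3* rose by 0.70 in *HtlACT* tissue and was at 0.10 in *InR* tissue, the deacetylase gene *HDAC4* fell by 0.67 in *HtlACT* tissue, and *Eglp2* rose by 0.74 in *InR* tissue. Compared directly, *Prip* in *HtlACT* tissue was at −0.21 relative to *InR* tissue (SE 0.10 in limma, adjusted p = 0.141).

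Besides its role in transport, the pump with Nrv2 is known as a component of septate junctions, the seals of the blood-brain barrier in *Drosophila*. Of 11 tested genes of other septate junction proteins 8 rose in *HtlACT* and 9 in *InR* tissue, beside 13.0% and 9.24% of everything tested. In *InR* tissue *Gli*, *Tsf2*, *vari* and *sinu* led with log2 fold changes of 2.04, 1.84, 1.77 and 1.74. The change of *nrv2* in *HtlACT* tissue (1.56) was above that of all 11 genes, which ranged from −0.38 to 1.22. In *InR* tissue the change of *nrv2* (0.43) was below that of 10 of the 11, which had a median of 1.43 and a range of 0.07 to 2.04. In the direct comparison *nrv2* was at 1.13 and the 11 genes at −0.96 to 0.02. Of the 11, 5 were called lower in *HtlACT* tissue, beside 6.45% of everything tested.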

How the data were processed

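RNA of 3 control, 3 *HtlACT* and 3 *InR* samples was labelled from 500 ng and hybridised to 9 arrays. The authors made the deposited values in Affymetrix Expression Console by MAS5 (versions not given in the sources used here), as linear signals (intensity) per probe set, neither logged nor centred. They then left out probe sets by detection p-value and called genes with SAM. Detection calls were not used here. Precision is limited by 3 arrays a group. Of 18952 probe sets 183 array controls were dropped, 13646 carry the name of 1 gene, 402 of several and 4721 of none. For 13543 of the single-gene probe sets the gene identifier was found in the RefSeq gene table, which then gave the symbol. Signals were taken to log2. limma 3.58.1 (R 4.3.3) estimated 3 group means, leaving 6 residual degrees of freedom beside a prior of 2.09, and was checked on simulated data. Named were the 8 genes, marker genes, up to 4 called genes of each list by size of change in each comparison, and the 5 genes most like *nrv2* and *nrv3*. Members and lists were chosen with earlier results of these data known. After subtracting group means, control and *InR* arrays of equal number correlated at 0.499, 0.371 and 0.23, so the numbers were taken to pair them. This rests on the data, since the labels state no pairing. The main fit held no replicate block, so its p-values are unpaired, and the block was used only as an alternative. The permutation tests were unpaired as well. In the comparisons with *HtlACT* the correlations ran from −0.167 to 0.378, some of them below 0. Alternatives covered scaling, filter, a pseudocount of 16, the arrays fitted, a replicate block, the variance model, the choice of probe set, SAM with 20 label arrangements and each array left out. Python 3.11.15 with pandas 2.3.3 and matplotlib 3.10.9 made the tables and plots.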

Additional observations from a re-analysis of the deposited data

Results flagged for a closer look

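The response differed between both glial tissues for 4 genes, in the direct limma test of *HtlACT* against *InR* tissue, where 5.43% of everything tested was called higher. The log2 difference was 1.13 for *nrv2*, 1.24 for *Irk1*, 1.10 for *Irk2* and 1.87 for *Irk3*. For each gene *HtlACT* was higher on 3 of 3 arrays than every *InR* array, as for 16.8% of everything tested. The call was lost in 1 of 25 alternatives for *nrv2* and in 2 of 24 for *Irk2*. Both tissues were compared with the same control arrays, which do not enter this difference except through the shared estimate of spread. Groups of 3 arrays were too small for a search for single outlying arrays.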

How the results depend on the processing

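Counts of called genes depended on a few settings. Median centring over all probe sets left 0 genes lower in *HtlACT* tissue and gave 1 lower in *InR* tissue (*kcc*). The median signal it rests on was 30.7 to 40.6, beside a trimmed mean of 500.0. With the brightest 5701 probe sets, 2 genes were higher in *HtlACT* than in control (13.5% of everything tested) and 1 than in *InR* tissue, since the Irk genes were then not tested. *Irk1* was not tested either when its 2 probe sets were averaged. Over everything tested the brightest 5701 gave 942 lower calls in *HtlACT* tissue, 481 higher and 307 lower in *InR* tissue and 244 lower in the direct comparison. With no filter 347 and 366 were lower in the last 2 comparisons. In *InR* tissue 1 gene was higher after quantile normalization, after centring on the tested probe sets (*Irk3* both times) and with the replicate block on 6 arrays (*nrv1*). Of the 8552 tested, 805, 865 and 835 were called higher in these settings. Leaving out 1 array gave 0 to 1 genes higher in *InR* than in control tissue, 4 to 5 higher in *HtlACT* than in control tissue and 4 to 5 higher than in *InR* tissue. Of everything tested, 12.3 to 13.1% was then called higher in *HtlACT* than in control tissue. In the main fit the shares were 9.24% for *InR* tissue and 5.43% for the direct comparison. An alternative chosen after seeing the data dropped control 2, *InR* 2 and *InR* 3, and then 2 genes exceeded *InR* tissue. Over everything tested it gave 264 higher and 55 lower calls in *InR* tissue (790 and 562 before) and 187 and 104 in the direct comparison (464 and 552), where SAM gave 302 lower. With only control 2 and *InR* 2 dropped, 315 were lower in *InR* tissue. SAM called 350 lower in *InR* tissue. Median centring gave 1026 lower calls in *HtlACT* tissue (1639 before), 917 lower in *InR* tissue, and 1013 and 247 in the direct comparison. Median centring reversed *kcc* in *HtlACT* against control tissue (0.0457), and *nrv3* and *fray* in *HtlACT* against *InR* tissue (0.0367 and 0.043), none of them called. With the replicate block on 6 arrays *Irk2* was not called in *HtlACT* tissue (adjusted p = 0.0686 from limma). Control and *HtlACT* arrays of equal number correlated at −0.04, −0.055 and 0.198. Besides *nrv1* in *InR* tissue and *Irk2* in *HtlACT* tissue, the block changed no call of these genes. The *nrv2* to *nrv3* difference kept its direction in all 10 alternatives of each comparison. Leaving out 1 array gave 2.08 to 2.48 for *HtlACT* and 0.84 to 0.98 for *InR* against control, and 1.19 to 1.58 between them. The cause of these shifts was not tested beyond the sets of genes or arrays named.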

Other observations

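Over the 9 arrays, the log2 signals most like those of *nrv2* among 7365 other genes were those of *PLCXD*, *Sec61alpha*, *CG9231*, *lace* and *Got1*, with Pearson r of 0.986 to 0.990. Mean signals of *lace*, a serine palmitoyltransferase subunit gene, were 1559 in control, 3982 in *HtlACT* and 2250.5 in *InR* tissue. For *nrv3* they were those of *EndoA*, *Pdcd4*, *Snap25*, *barr* and *CG11696*, with r of 0.990 to 0.994. The SNARE gene *Snap25* had means of 2570.3, 1217 and 1528. The points fall into 3 groups, so these values describe the order of the groups more than single arrays.

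*Irk1* had a further probe set, which read 0.8722 to 10.06 over all arrays, mostly below or near the 25th percentile of an array (5.91 to 9.24). Its groups overlapped, with means of 1.695 in control, 2.501 in *HtlACT* and 6.167 in *InR* tissue. Its log2 change in *InR* tissue (1.79) and direct difference (−1.32) had the opposite sign to those of the brighter probe set (adjusted p = 0.213 and 0.412 from limma on every probe set). Of 7 genes related to the pump subunits 3 were matched to a probe set and none was bright enough to be tested.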
